A study of Mus musculus with 15 samples.

Results

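The 49 genes described here were higher in organoids from first-round liver metastases than in all later organoids of the same colon cancer transplantation study. They were chosen by measured values. A protein-coding gene entered the set when its mean in the first-round metastasis organoids was at least 5 CPM (the count divided by the library total and multiplied by 1000000), when that mean was at least 4 times the mean of each of the other 4 groups, and when the lowest first-round library stood above the highest of the other 12 libraries. These limits were met by 49 of 21864 protein-coding genes, or 0.224%, in a table of 54418 gene IDs. Every contrast between the first-round organoids and the others therefore repeats the choice of the genes, and its values are given as a description with no test.

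The libraries were made from mouse colon cancer organoids with the genotype given as AKP, recovered from C57Bl6 recipient mice. Organoids had been established from tumours, placed in the colon of immunocompetent mice and recovered again over 3 rounds. The groups are liver metastases of round 1 (Met1), round 2 (Met2) and round 3 (Met3), followed by primary tumours of round 2 (Primary2) and round 3 (Primary3), with 3 libraries in each group and 15 in all. All groups share the AKP genotype and the C57Bl6 recipients, and no non-tumour group is among them. The design text speaks of several organoid lines per round, but the labels do not say whether the 3 libraries of a group are separate mice, lines or cultures, so each p-value covers the spread among these libraries alone, which may be technical. Organoids from first-round primary tumours were not analysed here, so features that belong to round 1 and features that belong to metastases of round 1 cannot be told apart.

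Library totals ranged from 14122203 to 21306543 counts. The epithelial gene Epcam had 817, 863 and 858 CPM in Met1 and 710 to 1041 CPM in the other 12 libraries, and the 14 epithelial identity genes summed to 12431 to 15024 CPM in Met1. Fibroblast and stellate cell markers (15 genes) summed to 0.374 to 1.94 CPM in Met1 and 0.256 to 5.29 CPM elsewhere, and erythrocyte markers (7 genes) were at 0 in Met1. A ribosomal RNA gene took 2.01 to 3.73% of the counts in Met1, 6.24 to 7.52% in Met2 and 3.38 to 7.03% in the remaining groups. Whether that share has a part in any result was not tested. In bulk samples such as these, a change in the number of cells of a type and a change in RNA per cell cannot be told apart.

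The set has no single pathway, but several of its genes belong to programs that intestinal tumour cells are known to use. Car9 encodes a cell-surface carbonic anhydrase and is a standard readout of hypoxia-inducible factor. Mmp7, the secreted protease matrilysin, is made by Paneth cells in the normal mouse intestine and by adenomas, and it is a target of β-catenin with TCF factors. Prox1 is a homeobox gene switched on by Wnt signalling in colon tumours, Tnik encodes a kinase that binds the β-catenin and TCF complex, and Aldh1l2 and Adm2 are induced by Atf4, the transcription factor of the amino acid and endoplasmic reticulum stress response.

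RefSeq promoter windows (build GRCm38.p6), each covering 250 bases before to 50 bases after a transcription start, were found for 38 of the 49 genes. The windows were searched on both strands for several motifs, among them the TCF/LEF core ATCAAAG. This core was present in windows of 6 of the 38 genes (15.8%), namely Car9, Cldn18, Mmp7, Nfia, Rbms3 and Srarp, and in 277 of all 9174 protein-coding genes (3.02%) that have a window and a mean of at least 1 CPM. Among the Wnt-related genes named above, Mmp7 had a match, while Prox1 had a window without one. Of those 6, the windows shown are of Mmp7 and Car9, which are among the highest genes of the set per kilobase of exon, of Rbms3, which is on the YAP target list, and of Cldn18, which fell in later metastases. Capitals mark the TCF/LEF core in either orientation (ATCAAAG or CTTTGAT), in Mmp7 also the AP-1 motif TGANTCA, and in Car9 also the hypoxia response element core ACGTG, which lies on the reverse strand there. Matches to other motifs stay in lower case, among them an AP-1 motif 77 bases before the start of Car9. The windows lie at chr9:7691840-7692139 (plus strand, Mmp7), chr4:43506776-43507075 (plus strand, Car9), chr9:117629864-117630163 (minus strand, Rbms3) and chr9:99710014-99710313 (minus strand, Cldn18), and are written 5′ to 3′ along the gene.
Mmp7: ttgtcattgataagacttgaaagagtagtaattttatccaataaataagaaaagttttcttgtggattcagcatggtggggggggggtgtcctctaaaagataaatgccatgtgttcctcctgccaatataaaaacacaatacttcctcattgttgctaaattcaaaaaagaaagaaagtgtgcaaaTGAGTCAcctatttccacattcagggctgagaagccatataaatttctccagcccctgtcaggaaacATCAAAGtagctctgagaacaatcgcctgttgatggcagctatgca
Car9: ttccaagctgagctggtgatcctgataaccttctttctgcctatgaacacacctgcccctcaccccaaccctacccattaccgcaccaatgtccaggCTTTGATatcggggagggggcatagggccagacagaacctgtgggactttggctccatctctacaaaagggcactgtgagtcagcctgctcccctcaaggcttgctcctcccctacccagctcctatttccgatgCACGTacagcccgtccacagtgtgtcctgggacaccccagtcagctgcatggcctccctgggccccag
Rbms3: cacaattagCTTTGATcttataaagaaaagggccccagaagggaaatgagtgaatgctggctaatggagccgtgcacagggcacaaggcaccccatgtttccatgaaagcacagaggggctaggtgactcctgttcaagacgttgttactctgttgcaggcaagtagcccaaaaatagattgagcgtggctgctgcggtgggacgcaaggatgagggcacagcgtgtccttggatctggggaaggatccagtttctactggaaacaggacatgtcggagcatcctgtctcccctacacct
Cldn18: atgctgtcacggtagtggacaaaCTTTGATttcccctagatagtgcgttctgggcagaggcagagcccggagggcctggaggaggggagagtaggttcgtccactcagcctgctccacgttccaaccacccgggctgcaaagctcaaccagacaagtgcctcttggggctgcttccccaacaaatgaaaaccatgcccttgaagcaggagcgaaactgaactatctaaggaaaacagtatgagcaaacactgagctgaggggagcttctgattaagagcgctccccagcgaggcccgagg

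The Mmp7 window carried the AP-1 motif 63 bases before the start and the TCF/LEF core at base 5 after it. In Car9 the ACGTG core began 18 bases before the start, and the TCF/LEF core 153 bases before it. Other motifs were searched in the same windows. AP-1 (TGANTCA) was found in 5 genes (13.2%, against 6.31% of all genes with a window), the GATA motif (AGATAA or TGATAA) in 8 genes (21.1%, against 11.9%), the TATA box (TATAAA) in 7 genes (18.4%, against 8.68%), the TEAD motif (GGAATG) in 2 genes (5.26%, against 14.0%) and the E-box (CACGTG) in 2 genes (5.26%, against 11.9%). The ACGTG core, which is part of that E-box, was found in 7 genes (18.4%, against 29.6%). A C/EBP-ATF response element (TGATGNAA) was found in 2 genes, Igsf23 and Mdfic (5.26%, against 2.81%), and a CDX motif (TTTATGG) in 2 genes (5.26%, against 1.94%). The windows also differ in base composition. Median GC content was 56.7% in the windows of the set, 52.0% in those with a TCF/LEF match and 61.0% in all windows, and the median number of CpG pairs was 7 in the windows of the set and 21 in all windows. The part of base composition in the motif shares was not tested, and a match describes letters only.

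Most of the set was expressed at low to moderate levels. Together the 49 genes took 0.121 to 0.224% of the counts in Met1 and 0.00949 to 0.0249% in the other libraries. The ratio of the Met1 mean to the highest mean among the other groups ran from 4.12 for Capn13 to 114 for Bend5, with a median of 7.76, and was at least 10 for 22 genes. In 27 genes the lowest Met1 library was at least 2 times the highest other library, and in Car9, Nectin3, Bend5, Ldb3 and Mb21d2 it was at least 10 times as high. Per kilobase of exon, the highest Met1 means were those of Mmp7 (123 CPM per kb), Gadd45a (78.1), Car9 (64.8), Asprv1 (33.9), Adm2 (30.0) and Samd5 (29.1).

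**Figure D1:**
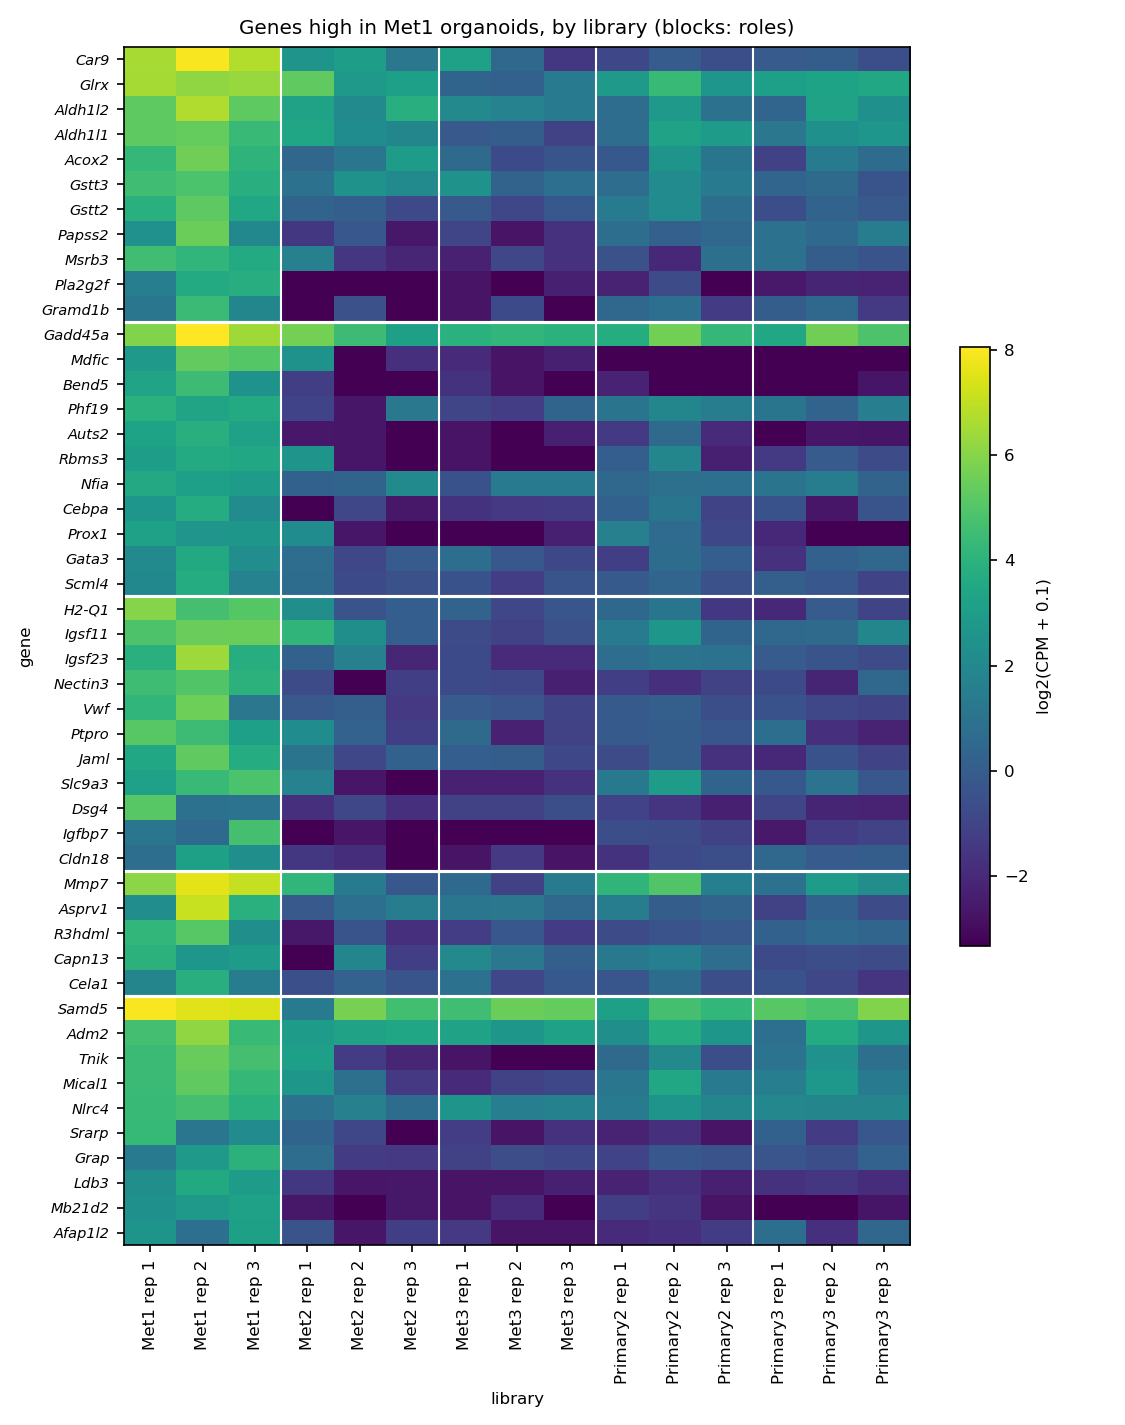
Level of 48 of the 49 genes (log2 of CPM + 0.1, colour scale) in the 15 libraries (columns, grouped by white lines), with genes ordered by role and then by Met1 mean. The 3 Met1 columns are brighter than the other 12 in every gene, as the choice of the genes requires, and the second Met1 library holds the highest value of 30 of the 49.

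Among 11 genes for metabolic and redox enzymes, Car9 had the highest Met1 level per kilobase of exon. Its levels were 94.7, 247 and 106 CPM in Met1, against 5.88, 8.32 and 2.15 CPM in Met2, 8.90, 1.29 and 0.256 CPM in Met3, 0.445, 0.892 and 0.560 CPM in Primary2 and 0.850, 0.930 and 0.571 CPM in Primary3. All 3 Met1 libraries stood far above the rest, 4 of the 6 later metastasis libraries were above 2 CPM, and all 6 primary libraries were below 1 CPM. A pair of folate enzymes followed. Aldh1l1 and Aldh1l2 encode the cytosolic and the mitochondrial 10-formyltetrahydrofolate dehydrogenase. Aldh1l2 had 37.1, 105 and 38.0 CPM in Met1, against 1.20 to 13.9 CPM (median 4.10) in the other 12 libraries. Aldh1l1 had 38.0, 41.6 and 20.1 CPM in Met1, against 0.358 to 10.6 CPM (median 4.13) elsewhere.

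Glutathione-linked enzymes formed another group. The theta-class glutathione transferase genes Gstt3 (chr10:75774115-75781414) and Gstt2 (chr10:75831114-75837424) lie 49699 bases apart on the minus strand of chromosome 10 (GRCm38), and no other members of the set lie within 1 Mb of each other. Gstt3 had 23.8, 28.1 and 14.0 CPM in Met1, against 0.686 to 5.70 CPM (median 1.74) in the other 12. Gstt2 had 14.7, 37.4 and 10.9 CPM in Met1, against 0.430 to 4.46 CPM (median 0.893) elsewhere. Both genes were low in every later library. Of the neighbouring genes, some differed less between groups. The mean of Mif, a cytokine gene, was 569 CPM in Met1 and 380 to 578 CPM in the other groups. That of Smarcb1, a chromatin remodelling subunit, was 52.9 CPM in Met1 and 30.8 to 40.9 CPM in the others. Its lowest Met1 library (51.6 CPM) still stood above the highest other library (44.5 CPM). Weaker neighbours varied more: Mmp11 averaged 2.59 CPM in Met1 and 0.473 to 6.52 CPM in the other groups, and Derl3 1.33 CPM in Met1 and 0.162 to 0.751 CPM. Gstt1 and Gstt4, which lie between Gstt3 and Gstt2, stayed below 1 CPM in all 15 libraries. Reads shared by these paralogs could have been split by the authors' estimation, so their separate levels are uncertain.

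Glrx, the glutaredoxin that reduces glutathionylated proteins, had the most even Met1 values of the set. Its levels were 91.6, 72.7 and 78.7 CPM in Met1, against 1.08 to 39.2 CPM (median 7.56) in the other 12 libraries. Msrb3, which reduces oxidised methionine, had 23.7, 17.6 and 12.3 CPM in Met1, against 0.107 to 3.04 CPM (median 0.521) elsewhere. Papss2, which makes the sulphate donor for sulphation reactions, had 5.33, 45.6 and 3.84 CPM in Met1, against 0.0538 to 2.69 CPM (median 0.886) elsewhere, so its mean rests largely on the second library. The lipid-handling genes were Acox2, a peroxisomal oxidase of branched-chain acyl-CoAs (Met1 mean 28.1 ± 17.9 CPM, SD, n = 3), Gramd1b, a sterol transfer protein (9.09 ± 10.8 CPM), and Pla2g2f, a secreted phospholipase A2 (9.54 ± 5.85 CPM).

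Pla2g2f (chr4:138750533-138757626) lies in a cluster of related phospholipase genes whose other members were below the limits or outside the protein-coding class. Pla2g2a, annotated as a polymorphic pseudogene and therefore not in the set, met the numerical limits with 116, 195 and 34.3 CPM in Met1, against 14.7 CPM in the first Met2 library and at most 0.533 CPM in the other 11. Pla2g2d averaged 2.73 CPM in Met1 and at most 0.445 CPM in any other group, Pla2g2e averaged 2.18 CPM in Met1 and at most 0.0526 CPM, and Pla2g5 averaged 1.65 CPM in Met1 and at most 0.0886 CPM. Pla2g2c, the remaining gene of the cluster, had no counts in Met1. These genes resemble each other, and how the authors' estimation split their reads is not given in the sources used here.

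The 11 nuclear and RNA-binding regulators were mostly weakly expressed, with a median Met1 mean of 10.5 CPM. Gadd45a, a growth arrest gene induced by DNA damage and other stress, was the exception, per kilobase as well. It had 59.7, 266 and 87.0 CPM in Met1, against 8.73 to 50.8 CPM (median 18.6) in the other 12, and its lowest Met1 value exceeded the highest other value by a factor of 1.18. Gata3, a zinc finger factor of T cells and of mammary and other epithelia, had 4.06, 11.9 and 4.74 CPM in Met1, against 0.212 to 1.65 CPM (median 0.920) elsewhere. Its relative Gata2, which missed the ratio limit, had 112, 22.8 and 35.2 CPM in Met1 and at most 21.1 CPM elsewhere, and Gata6, the intestinal GATA factor named in the series title, had 6.53, 28.7 and 22.4 CPM in Met1 and 0 to 9.43 CPM elsewhere, with overlapping libraries.

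Cebpa, a C/EBP differentiation factor, had 6.26, 12.9 and 4.45 CPM in Met1, against 0 to 2.02 CPM elsewhere. Prox1 had 9.17, 6.04 and 6.44 CPM in Met1, against 0 to 4.49 CPM (median 0.0820), and its highest other library was the first of Met2. Nfia, a nuclear factor I gene, averaged 9.30 ± 1.93 CPM in Met1 and at most 4.30 CPM in any other library. Polycomb-related genes made up 3 of the regulators: Phf19, a partner of Polycomb repressive complex 2, averaged 12.5 ± 2.56 CPM in Met1, Auts2, a partner of a Polycomb repressive complex 1, 10.8 ± 2.66 CPM, and Scml4, a gene of the Scm family, 6.79 ± 5.65 CPM. In the other 12 libraries the highest values of these genes were 3.66 CPM for Phf19, 1.41 CPM for Auts2 and 1.52 CPM for Scml4.

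Bend5, which encodes a BEN domain protein, had the largest ratio of the set. It had 10.0, 21.9 and 5.73 CPM in Met1, against 0 to 0.330 CPM in the other 12 libraries, which held 13 counts in all. The ratio of 114 therefore rests on very few counts outside Met1. Mdfic, which encodes an inhibitor-domain protein that binds transcription factors, had 7.14, 39.6 and 32.7 CPM in Met1, against 5.55 CPM in the first Met2 library and at most 0.201 CPM in the other 11. Rbms3, an RNA-binding protein gene, had 8.07, 12.2 and 11.3 CPM in Met1, against 0 to 5.75 CPM (median 0.193) elsewhere, again with the first Met2 library highest.

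**Figure D2:**
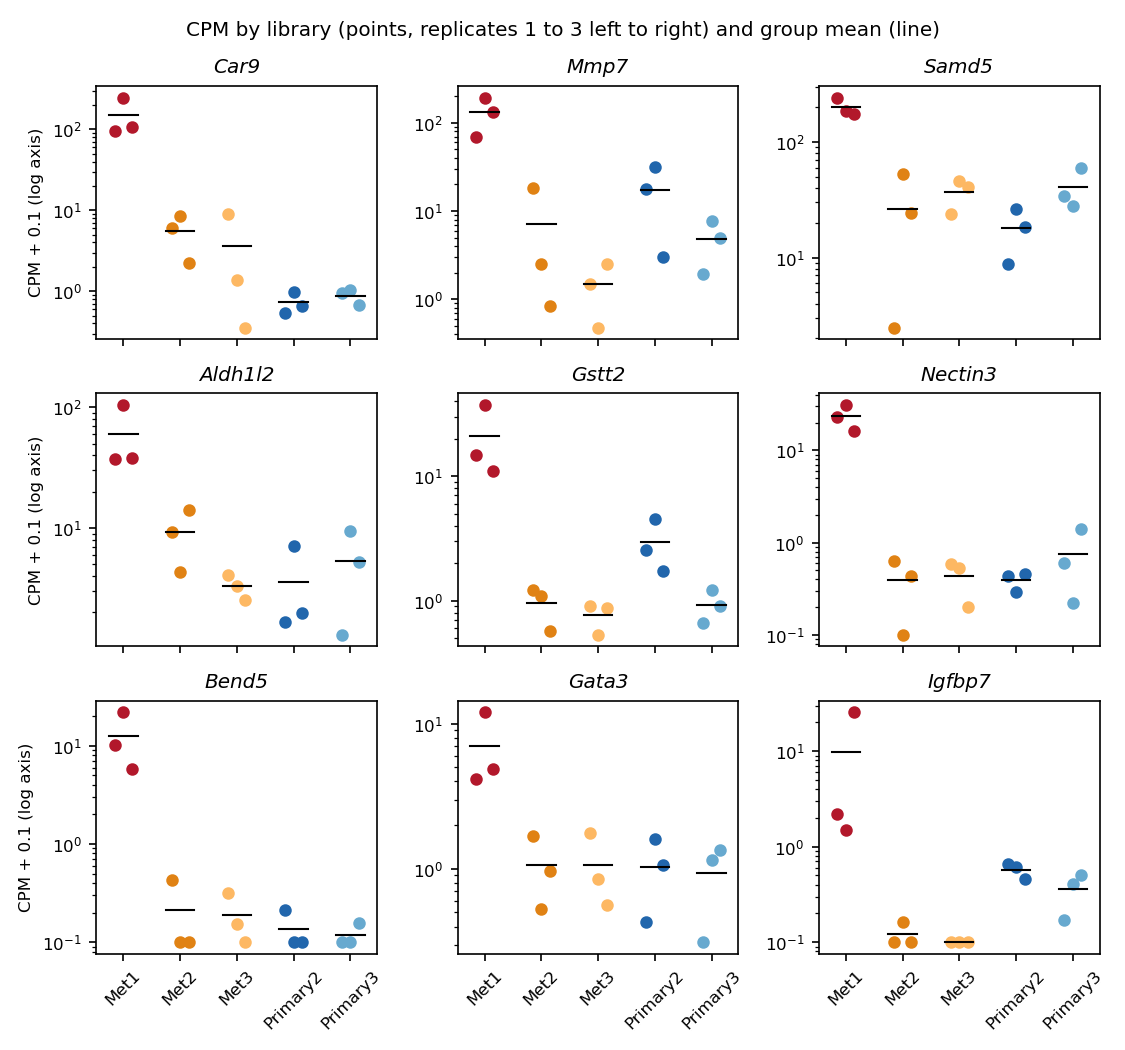
CPM + 0.1 on a log axis for 9 of the 49 genes in each library (points, replicates 1 to 3 from left to right) with the group mean (black line), for Met1, Met2, Met3, Primary2 and Primary3. The 3 Met1 points lie above all others in each panel, Car9 is next highest in Met2 and Met3, and Igfbp7 has 1 of its Met1 points at 25.5 CPM and the others at 2.09 and 1.39 CPM.

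The 11 genes for cell surface, adhesion and secreted proteins had the highest median ratio of the role groups (18.9). Nectin3, an adhesion protein of adherens junctions, had 23.1, 31.0 and 16.0 CPM in Met1, against 0 to 1.31 CPM (median 0.346) elsewhere. H2-Q1, an MHC class I gene of the Q region, had 63.9, 25.5 and 33.7 CPM in Met1, against 0.142 to 4.89 CPM (median 0.792), and belongs to a multigene family in which reads may be shared. Immunoglobulin-domain genes comprised Igsf11, a homophilic adhesion protein (39.6 ± 8.75 CPM in Met1), Igsf23 (37.2 ± 39.9 CPM) and Jaml, a junctional adhesion protein known from leukocytes (20.8 ± 15.2 CPM). Their highest values outside Met1 were 17.1 CPM for Igsf11, 3.02 CPM for Igsf23 and 1.98 CPM for Jaml.

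Ptpro, a receptor tyrosine phosphatase, had 33.8, 22.4 and 8.48 CPM in Met1, against 0.108 to 4.49 CPM elsewhere. Slc9a3, the sodium-hydrogen exchanger of the intestinal brush border, had 8.95, 20.5 and 28.3 CPM in Met1, against 0 to 7.84 CPM (median 0.761). Cldn18, a claudin of stomach and lung tight junctions, had 1.65, 8.87 and 5.02 CPM in Met1, against 0 to 1.27 CPM. These genes were low but not overlapping, as required of the set.

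Several surface and secreted genes were far from even across the Met1 libraries. Dsg4, a desmoglein of keratinising epithelia, had 34.6, 1.87 and 1.94 CPM in Met1, against 0.102 to 0.563 CPM elsewhere. Igfbp7, a secreted protein that binds insulin-like growth factors, had 2.09, 1.39 and 25.5 CPM in Met1, against 0 to 0.556 CPM elsewhere. Vwf, the platelet-binding clotting protein of endothelium, had 17.6, 46.5 and 2.18 CPM in Met1, against 0.269 to 0.986 CPM elsewhere. In each of these genes the Met1 libraries were at least 10 times apart, and even the lowest stayed above the other 12.

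Vwf and Igfbp7 are also endothelial genes, but the defining endothelial markers did not accompany them. The 11 endothelial markers summed to 4.81 to 8.48 CPM in Met1 and 5.97 to 11.9 CPM in the other libraries. Kdr and Emcn were at 0 in all 15 libraries, and Pecam1 had 0.165, 0.214 and 0.426 CPM in Met1 and 0.0708 to 0.470 CPM elsewhere. Hepatocyte markers (16 genes) summed to 47.6 to 80.6 CPM in Met1 and 6.97 to 35.1 CPM elsewhere. Most of that sum was Ass1, an enzyme of arginine synthesis, with 40.6, 64.9 and 77.0 CPM in Met1 and 6.51 to 33.9 CPM elsewhere, and albumin (Alb) had 6.20, 1.01 and 2.46 CPM in Met1 and 0 to 0.778 CPM elsewhere. The 13 lymphocyte markers summed to 78.0 to 249 CPM in Met1 and 0.739 to 88.7 CPM elsewhere, nearly all from Trbc1, with 216, 249 and 77.8 CPM in Met1, while the T cell gene Cd3e had 0, 0 and 0.0474 CPM in Met1. The 16 myeloid markers summed to 57.1 to 77.8 CPM in Met1 and 24.1 to 171 CPM elsewhere. The part of hepatocyte and lymphocyte transcripts in the values of the set was not tested.

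Per kilobase of exon Mmp7 was the highest of the proteases and of the whole set. It had 68.4, 194 and 133 CPM in Met1, against 0.377 to 31.1 CPM (median 2.66) in the other 12 libraries. Primary2 was the next highest group, at 17.5, 31.1 and 2.90 CPM. Paneth cell genes other than Mmp7 and Pla2g2a did not accompany it: 2 of the 11 listed genes were protein-coding with a mean of at least 1 CPM over the 15 libraries, and Lyz1 and Defa24 were at 0 in Met1. Asprv1, a retroviral-like aspartic protease of skin, had 4.67, 138 and 14.9 CPM in Met1, the widest spread of the set, against 0.354 to 2.75 CPM elsewhere. R3hdml, a putative protease inhibitor gene, had 18.7, 33.8 and 5.02 CPM in Met1, against 0.0661 to 1.36 CPM. Capn13, a calpain gene, averaged 9.86 ± 5.17 CPM and Cela1, a pancreatic-type elastase gene, 6.68 ± 6.25 CPM in Met1, with highest other values of 3.997 CPM for Capn13 and 1.81 CPM for Cela1.

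Among the signalling and cytoskeletal genes, Samd5 encodes a protein with a sterile alpha motif. It had 243, 188 and 174 CPM in Met1, against 2.38 to 59.1 CPM (median 27.1) elsewhere. Adm2, the peptide hormone intermedin, had 25.5, 71.3 and 20.1 CPM in Met1, against 1.70 to 13.3 CPM (median 8.35). Tnik had 21.2, 42.8 and 25.7 CPM in Met1, against 0 to 8.46 CPM (median 1.003). Mical1, which oxidises actin, had 21.5, 38.3 and 18.9 CPM in Met1, against 0.160 to 11.0 CPM (median 2.26), and Nlrc4, an inflammasome component, had 19.98, 26.2 and 14.97 CPM, against 1.54 to 5.91 CPM (median 3.33).

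The remaining signalling and cytoskeletal genes were weaker. Ldb3, a Z-disc protein gene of muscle, had 4.89, 12.1 and 7.44 CPM in Met1, against 0.0533 to 0.264 CPM elsewhere, and Mb21d2 had 5.16, 6.78 and 9.14 CPM, against 0 to 0.333 CPM. Grap, an adaptor related to Grb2, averaged 8.38 ± 6.74 CPM in Met1, Afap1l2, an adaptor bound by actin filaments, 5.45 ± 3.60 CPM, and Srarp, a steroid receptor-associated protein gene, 8.64 ± 9.41 CPM. Afap1l2 lay closest to overlap, its lowest Met1 value being 1.02 times the highest other value.

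The limits of the set were not at a gap in the data. Just inside the limit on the mean were Cldn18 (5.18 CPM) and Afap1l2 (5.45 CPM), and just outside it Sh3gl2 (4.96 CPM) and Arfgef3 (4.89 CPM). Just inside the limit on the ratio were Capn13 (4.12) and Adm2 (4.23), and just outside it Itpr1 (3.98) and Sept1 (3.91). Sema5a, whose lowest Met1 value was 0.988 times the highest other value, was the nearest gene to miss the limit on overlap. Without the third Met1 library 76 genes met the limits, 45 of them among the 49. The same rule turned to the other groups chose 0 genes for Met2, 4 for Met3, 4 for Primary2 and 8 for Primary3.

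The Met1 libraries differed more on the 49 genes, in the median, than on all genes. The same Met1 values chose the set, and a high Met1 mean can rest on 1 library. The spread is therefore a description, and the part of the choice or of expression level in it was not tested. The highest Met1 library was a median of 2.93 times the lowest across the 49 genes, against 1.33 times across all protein-coding genes with a mean of at least 1 CPM. In 12 genes the Met1 libraries were within 2 times of each other. In Asprv1, Vwf, Papss2, Dsg4, Igfbp7 and Gramd1b, 6 genes in all, the libraries were at least 10 times apart. The second Met1 library was highest for 30 genes (61.2%, against 27.2% of all genes), the first for 11 and the third for 8. Without the second library the median ratio to the highest other group was 5.15, 17 genes moved by more than 1.5 times, and 8 fell below a ratio of 4, including Gadd45a (2.50), Papss2 (2.33) and Gramd1b (2.63), while Asprv1 was at 5.28, Vwf at 12.5 and Bend5 at 71.6. Without the first library the ratio of Dsg4 was 4.36 in place of 29.2 and that of Srarp 4.61 in place of 12.3, and without the third the ratio of Igfbp7 was 3.65 in place of 20.3 and that of Grap 5.97 in place of 10.7.

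Outside Met1, the remnants of expression were unevenly spread over the libraries. Of the 49 genes, 17 (34.7%) had their highest other value in the first Met2 library, which was the highest of the 12 for 16.1% of all genes, and 11 (22.4%) had it in the second Primary2 library, which was the highest for 5.94% of all genes. Here all genes means the protein-coding genes with a mean of at least 1 CPM over these 12 libraries. Some of the 49 genes, such as Bend5, are below that limit. The part of expression level in these shares was not tested. The summed level of the set was 230 CPM in the first Met2 library and 249 CPM in the second Primary2 library, 94.9 to 165 CPM in the other 10, and 1226, 2236 and 1206 CPM in Met1. Mdfic, Prox1, Rbms3 and Tnik were among the genes whose highest other value lay in the first Met2 library, at 4.49 to 8.46 CPM. Of the set, 7 genes stayed below 1 CPM in all 12 libraries, and 16 had at least 1 library with no count.

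**Figure D3:**
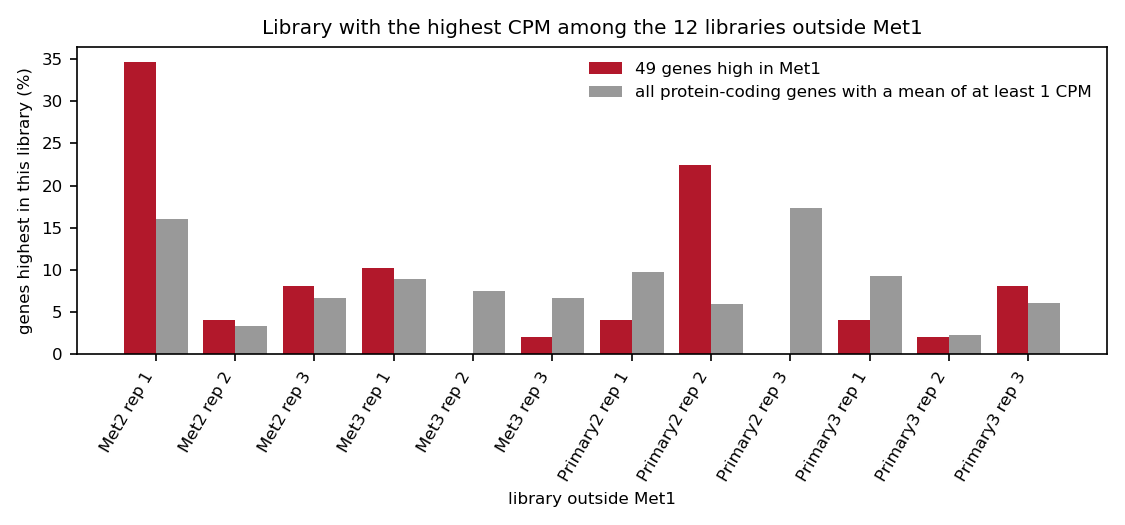
Share of genes (%) whose highest CPM among the 12 libraries outside Met1 fell in each library, for the 49 genes (red) and for all protein-coding genes with a mean of at least 1 CPM over these 12 libraries (grey). The first Met2 library (34.7% against 16.1%) and the second Primary2 library (22.4% against 5.94%) have larger red than grey bars. Some of the 49 genes are below the limit of the grey bars, and the part of expression level was not tested.

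Differences among the later organoids did not enter the choice directly and were tested in a fit of the 12 libraries outside Met1. The rule does, however, hold all 4 of these groups well below Met1. The fit used edgeR's quasi-likelihood test with Benjamini-Hochberg adjustment over 14465 genes. Of the 49 genes, 40 passed the filter on low counts and 9 were too low to be tested (Auts2, Bend5, Dsg4, Igfbp7, Ldb3, Mb21d2, Mdfic, Nectin3 and Pla2g2f). The counts that follow cover the 40 genes that passed. Fits without the filter or with all 15 libraries did test the other 9, and called 3 of them at an edgeR adjusted p under 0.05. With all 15 libraries these 9 passed the filter through the Met1 counts that chose them. The values from that fit are therefore a description and no support. Over all genes it called 4537 of 14925 in metastasis against primary and 1768 in Met2 against Primary2. For the fit without the filter the count over all genes is not given here, so its calls are not read as a trait of the set. Without the filter Mdfic was higher in metastases (adjusted p = 0.0199) and in Met2 against Primary2 (0.0337), with 5.55 CPM in the first Met2 library, 0 to 0.201 CPM in the other 5 metastasis libraries and no count in the 6 primary libraries. Igfbp7 was lower in metastases (adjusted p = 0.00254 without the filter and 0.0183 with all 15 libraries) and in Met3 against Primary3 (0.0311 without the filter), with 0 to 0.0616 CPM in metastases, against 0.0708 to 0.556 CPM in primary tumours. Auts2 was lower in Met2 against Primary2 with all 15 libraries (adjusted p = 0.0433), at 0 to 0.0661 CPM in Met2, against 0.153 to 1.41 CPM in Primary2.

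When metastases of rounds 2 and 3 were set against primary tumours of the same rounds, 1 of the 40 genes was higher (Car9) and 3 were lower (Papss2, Cldn18 and Mical1) at an adjusted p under 0.05. In the same comparison 28.9% of all genes tested were called, 14.2% higher and 14.7% lower. The rule holds the 40 genes well below Met1 in these libraries, and many of them are at low levels there, where a change is harder to call. The lower share of 4 of 40 is therefore not read as a trait of the set. The number lower was 10 without the first Met2 library, 5 without the second Met2 library, and 1 without the first Met3 or the first Primary3 library. Over all genes, these settings called 5122 of 14975, 3747 of 15084, 3228 of 14840 and 3403 of 15024 in either direction. The median log2 change was −0.33 over the 40 genes, of which 15 were positive, and 0.03 over all genes. Car9 rose by a log2 change of 2.70 (SE 0.70, edgeR adjusted p = 0.0160), with values of 0.256 to 8.90 CPM in the 6 metastasis libraries, against 0.445 to 0.930 CPM in the 6 primary libraries. Only the third Met3 library was below the primary range, and the other 5 metastasis libraries were above all primary libraries. Without the first Met3 library the log2 change of Car9 was 1.65. Papss2 changed by −2.37 (SE 0.52, edgeR adjusted p = 0.00731), with 0.264, 0.740 and 0.0671 CPM in Met2 and 0.426, 0.0538 and 0.205 CPM in Met3, against 1.61, 1.03 and 1.32 CPM in Primary2 and 1.84, 1.36 and 2.69 CPM in Primary3. No metastasis library reached the lowest primary library. Both calls held in all 17 alternatives run, with adjusted p from 0.000466 to 0.0443 for Car9 and from 0.000172 to 0.0226 for Papss2.

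The other calls of that comparison were less firm. Cldn18 changed by −2.10 (SE 0.59, edgeR adjusted p = 0.0221) at levels of 0 to 0.269 CPM in metastases, against 0.222 to 1.27 CPM in primary tumours, and the call was lost without the first Met3 (adjusted p = 0.0583), the third Primary2 (0.0549) or the first Primary3 library (0.0508). Mical1 changed by −2.15 (SE 0.71, edgeR adjusted p = 0.0421), with 0.160 to 6.34 CPM in metastases, against 2.11 to 11.0 CPM in primary tumours. Its call was lost without the second Met2 library (0.0843), any Met3 library (0.0979, 0.0757 and 0.0631 for the first, the second and the third), the second Primary2 library (0.116) or any Primary3 library (0.0596, 0.0977 and 0.0575), and with the replicate number as a block (0.0710). The first Met2 library held the highest metastasis value of Mical1, above 4 of the 6 primary libraries.

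Within round 2, none of the 40 genes was called in Met2 against Primary2 by edgeR, where 10.0% of all genes were (4.79% higher and 5.25% lower). At an unadjusted p under 0.05, 1 gene was higher (Car9, log2 change 3.22, SE 1.01, edgeR adjusted p = 0.0666) and 3 were lower (Gstt2, Cebpa and Papss2). Over all 14465 genes, 4048 had an unadjusted p under 0.05 in either direction. DESeq2 called 1 higher and 1 lower of the 40, against 1290 higher and 1302 lower over all genes. The median log2 change of the 40 genes was 0.16, against 0.04 over all genes, and 23 were positive. Its sign rested on the first Met2 library: without it the median was −0.41, 12 genes were positive and 2 were called lower by edgeR. In that setting 1969 of 14975 genes were called in either direction. Without the third Primary2 library the median was −0.01.

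Within round 3, 6 of the 40 genes were lower in Met3 than in Primary3 and none was higher by edgeR, where 17.9% of all genes were called, 7.93% higher and 10.0% lower. Among the higher side, 2 genes reached an unadjusted p under 0.05 (Asprv1 and Car9), and DESeq2 called 0 higher. Over all 14465 genes, 4972 had an unadjusted p under 0.05 in either direction, and DESeq2 called 1683 higher. The median log2 change was −0.73 over the 40 genes, 13 of which were positive, and 0.02 over all genes. Glrx had 1.17, 1.08 and 2.41 CPM in Met3, against 8.43, 9.61 and 10.8 CPM in Primary3 (log2 change −2.58, SE 0.72, edgeR adjusted p = 0.0343). Aldh1l1 had 0.799, 0.915 and 0.358 CPM in Met3, against 2.20, 5.21 and 6.11 CPM in Primary3 (−2.65, SE 0.72, edgeR adjusted p = 0.0311). Papss2 fell in this round too, by a log2 change of −3.03 (SE 0.75, edgeR adjusted p = 0.0217), as did Cldn18 (−2.89, SE 0.82, adjusted p = 0.0359) and Mical1 (−3.48, SE 1.07, adjusted p = 0.0465). Tnik had 1 count over the 3 Met3 libraries and 143 counts over the 3 Primary3 libraries, a ratio of 0.00587 with an exact 95% interval of 0.000148 to 0.0332 that covers counting error only (edgeR adjusted p = 0.0306). In each of these 6 genes the Met3 and Primary3 libraries did not overlap.

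None of the round 3 calls held when every library was left out in turn, and the number lower was 1 without any 1 of the Met3 libraries, 2 without the first or the second Primary3 library and 0 without the third. Calls over all genes fell in these settings too, from 2596 in either direction. They were 1114, 1442 and 1969 without the first, the second and the third Met3 library. Without the first, the second and the third Primary3 library they were 1569, 1191 and 993. The losses are therefore not read as a trait of these genes. Without the third Primary3 library all were lost, with adjusted p of 0.0922 for Glrx, 0.0988 for Aldh1l1, 0.0790 for Papss2, 0.0900 for Cldn18, 0.0827 for Mical1 and 0.0611 for Tnik. Without the first Met3 library the values were 0.115 for Glrx, 0.0890 for Aldh1l1, 0.131 for Cldn18, 0.149 for Mical1 and 0.0941 for Tnik. Without the second they were 0.102 for Glrx, 0.0631 for Aldh1l1, 0.0653 for Papss2, 0.108 for Mical1 and 0.0903 for Tnik, and without the third 0.0834 for Aldh1l1, 0.0614 for Papss2, 0.0989 for Cldn18, 0.0880 for Mical1 and 0.0824 for Tnik. Leaving out the first Primary3 library lost Glrx (0.0600), Cldn18 (0.0906), Mical1 (0.0721) and Tnik (0.0501), and leaving out the second lost Glrx (0.0784), Aldh1l1 (0.0808), Cldn18 (0.0811), Mical1 (0.133) and Tnik (0.0794). Cldn18 was also lost without the second (0.0551) or the third Primary2 library (0.0520), and Mical1 without the second Met2 (0.0558) or the third Primary2 library (0.0552). With the replicate number as a block, Glrx (0.0603), Aldh1l1 (0.0540), Cldn18 (0.05004, just above the threshold) and Mical1 (0.0656) were lost, and with all 15 libraries in the fit Papss2 was (0.0536). Glrx differed by 0.80 (SE 0.67), Aldh1l1 by 0.17 (SE 0.66) and Papss2 by −1.71 (SE 0.72) in Met2 against Primary2.

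**Figure D4:**
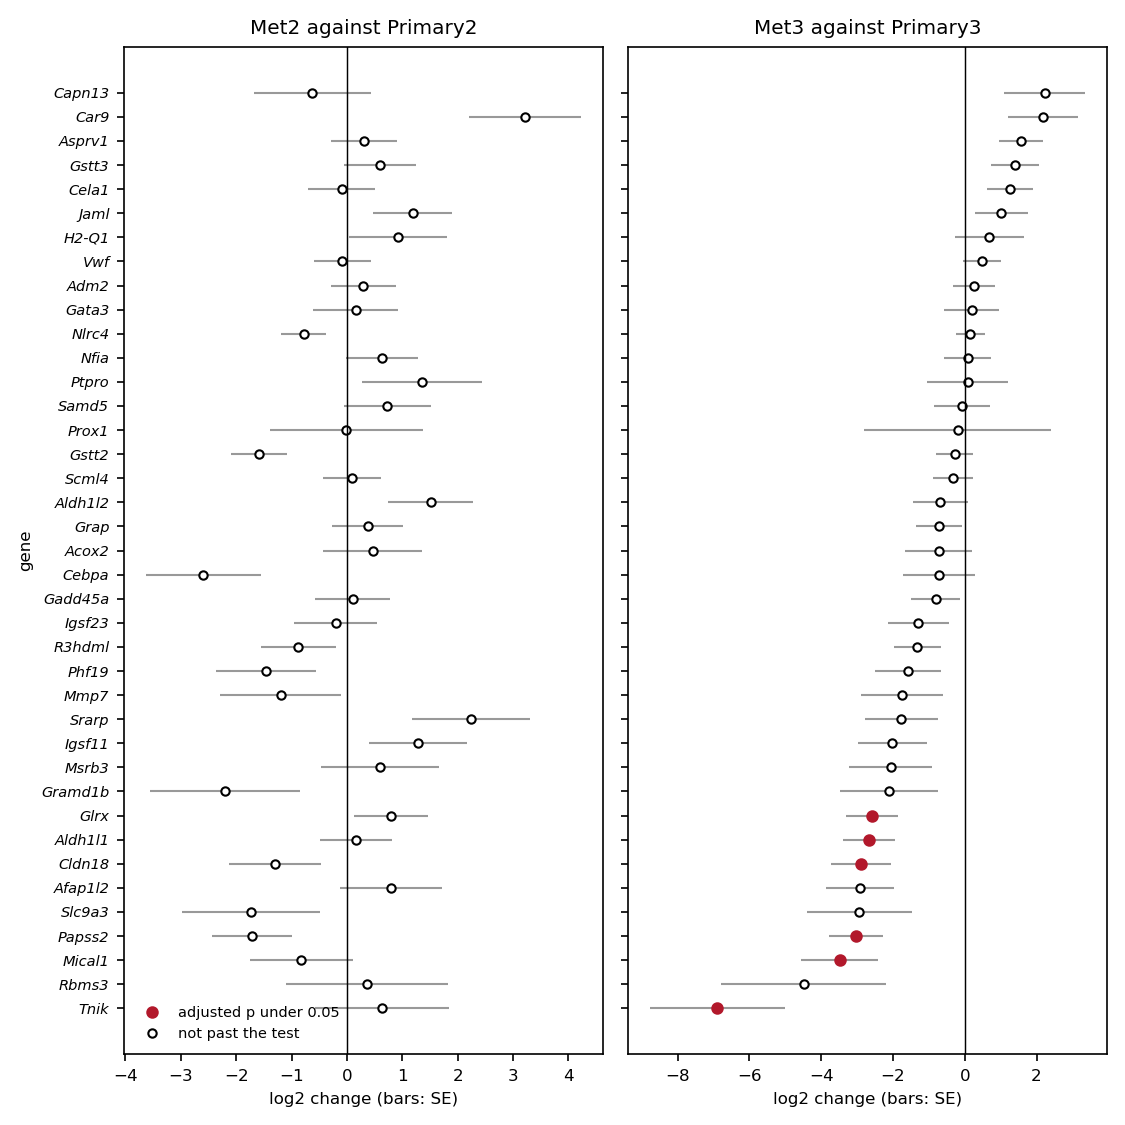
Log2 change (points, bars are SE) of 39 of the 40 tested genes in Met2 against Primary2 (left) and Met3 against Primary3 (right), ordered by the change in round 3. Filled points passed an adjusted p of 0.05: none on the left and 6 on the right, all negative, among which the fitted value of Tnik rests on 1 count in Met3.

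The difference between the round 3 and round 2 changes was tested directly. No gene of 14465 was called by edgeR (0.0%), 1610 had an unadjusted p under 0.05, 6 of the 40 genes among them and all negative (Glrx, Tnik, Aldh1l1, Afap1l2, Srarp and Igsf11), and DESeq2 called 200 genes, 2 of them in the set and lower. For Glrx the difference was −3.38 (SE 0.98, edgeR adjusted p = 0.350). The rounds are therefore not shown to differ by edgeR for any gene of the set.

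Met3 was also set against Met2. Here 0 of the 40 genes were called by edgeR, where 0.0277% of all genes were (0.00691% higher and 0.0207% lower), and 9 had an unadjusted p under 0.05, all lower in Met3, while DESeq2 called 5 lower. Over all 14465 genes, 1938 had an unadjusted p under 0.05 in either direction, and DESeq2 called 135 higher and 342 lower. The median log2 change of the 40 genes was −0.69, with 7 positive, against −0.01 over all genes. Without the first Met2 library the median was −0.24 and 14 were positive, and without the first Met3 library the median was −1.12. Between Primary3 and Primary2 no gene was called by edgeR (0.0%), 982 genes had an unadjusted p under 0.05, and DESeq2 called 37, none of them in the set. In the set, 2 were higher and 2 lower at an unadjusted p under 0.05, and the median log2 change was −0.35, but 0.22 without the second Primary2 library.

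Other genes of the pathways were read from wider gene lists in the same Met1 contrast that chose the set, so the counts are a description and members of the set are left out of them. With all 15 libraries, 8.33% of 11668 protein-coding genes with a mean of at least 1 CPM had all 3 Met1 libraries above the other 12, and 3.23% had them below; outside the set 7.94% were above. Of the lists examined, 32 had been set down with earlier results of these data known and 9 were added after the values were seen. Of 17 Wnt target genes besides Prox1, 4 were above (Axin2, Rnf43, Znrf3 and Tcf7) and 0 below, with a median log2 ratio of Met1 to the other groups of 0.63, against 0.06 over all genes outside the set. Axin2, a negative feedback gene of the pathway, had 218, 214 and 262 CPM in Met1, against 33.3 to 157 CPM elsewhere. Of 18 hypoxia and glycolysis genes besides Car9, 3 were above (Pgk1, Pfkp and Pfkl), 6 when the first Met2 library and 5 when the first Met1 library was left out, and the list's median was 0.57. Pfkp, a phosphofructokinase, had 531, 649 and 574 CPM in Met1, against 154 to 424 CPM elsewhere.

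Of 16 YAP target genes besides Rbms3, 2 were above (Tead1 and F3) with a median of 0.21, and 4 without the first Met1 library. The list of Atf4 targets in amino acid and folate metabolism was made after the values were seen. Besides Aldh1l2 and Adm2 of the set, 5 of its 22 genes were above (Chac1, Mthfd2, Mthfd1l, Slc7a5 and Gpt2) at a median of 0.66, and 8 without the first Met1 library. Mthfd2, a mitochondrial folate enzyme, had 198, 203 and 155 CPM in Met1, against 95.6 to 147 CPM elsewhere, and Chac1, which degrades glutathione, had 34.3, 46.8 and 31.7 CPM, against 8.002 to 24.2 CPM. These genes of the list missed the ratio limit of the set.

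Of the absorptive cell genes, 5 reached a mean of 1 CPM, none of them in the set, and 2 were above: Car2, a cytosolic carbonic anhydrase, with 1262, 1137 and 1583 CPM in Met1, against 20.1 to 418 CPM elsewhere, and Vil1, the villin of the brush border, with 231, 314 and 272 CPM in Met1, against 65.0 to 222 CPM elsewhere. The whole list summed to 1463 to 1885 CPM in Met1 and at most 815 CPM in any other library, most of it Car2. With library sizes scaled by TMM the counts above, without the set, were 3 for the Wnt list, 2 for the hypoxia list, 2 for the YAP list, 4 for the Atf4 list and 1 for the absorptive list. Over all expressed genes outside the set, 682 of 11619 were above with this scaling, against 923 without it. For the list counts with 1 library left out, the share over all genes was not computed. Of 24 proliferation genes 0 were above and 0 below. Of 20 cytokine and chemokine genes 0 were above and 3 below (Cxcl1, Ccl20 and Csf3), of 11 gastric and foregut genes 0 above and 1 below, and of 11 squamous genes 1 above and 1 below. The median log2 ratios of these lists were −1.35, −1.56 and −1.35. Medians near those of the Wnt, hypoxia and Atf4 lists were also found in other lists. They were 0.77 for 7 BMP targets (0 above) and 0.62 for 5 goblet cell genes (0 above). For 6 imprinted and germline genes (1 above) the median was 0.61, and for 17 interferon-stimulated genes (1 above) 0.54.

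**Figure D5:**
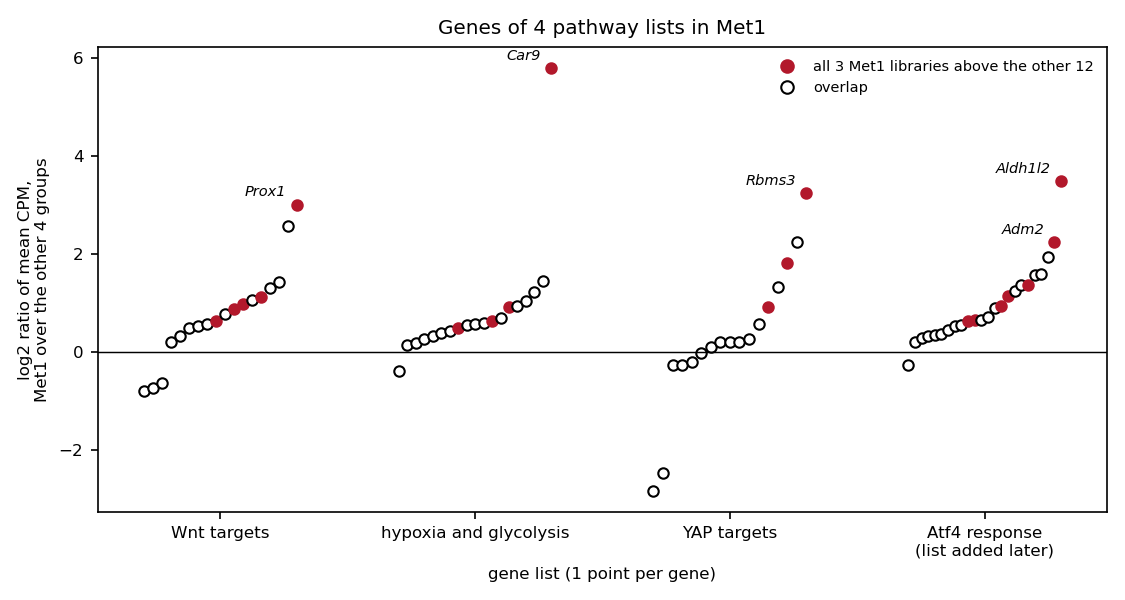
Log2 ratio of the Met1 mean to the mean of the other 4 groups (CPM, 0.1 added) for each gene of 4 lists, with filled points for genes whose 3 Met1 libraries all lie above the other 12 and labels on genes of the set, which are filled by choice. Without the labelled genes, filled points number 4 of 17 Wnt targets, 3 of 18 hypoxia and glycolysis genes, 2 of 16 YAP targets and 5 of 22 genes of the Atf4 list.

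By position, the 49 genes lay on 17 chromosomes. Chromosomes 8, 12, X and Y held none, against 5.42%, 3.49%, 2.78% and 0.00857% of expressed genes. Chromosome 10 held 7 (14.3%, against 4.68% of expressed genes). Chromosomes 6 and 9 held 6 each (12.2%, against 4.72% and 5.61%), and chromosome 4 held 5 (10.2%, against 6.37%). Apart from the Gstt2 and Gstt3 pair, the genes on these chromosomes were more than 1 Mb apart.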

How the data were processed

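RNA from mouse AKP colon cancer organoids was sequenced in 15 libraries, prepared with a directional kit and poly(A) selection per the labels' protocols. The authors estimated counts with Salmon 1.3.0 on mm10, per the submitters' processing notes. The deposited table holds these estimated counts per gene for 54418 Ensembl IDs, all of them whole numbers. The sources used here name no annotation release, no step from transcripts to genes and no filter. GENCODE M21 (GRCm38, equal to mm10) supplied symbols, classes and positions for 54166 IDs, and RefSeq supplied promoter windows. Columns were matched to samples by library name, with 0 left over.

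CPM values are counts divided by the column sum. Genes were tested with edgeR 4.0.16 (R 4.3.3, filterByExpr, TMM factors, quasi-likelihood F test, Benjamini-Hochberg adjustment, threshold 0.05) in a single fit of the 12 libraries outside Met1, after a check on simulated data. The SE of a log2 change was taken as its size over the square root of F. A floor of 3 counts equals 0.141 to 0.212 CPM per library. Alternatives were DESeq2 1.42.0, other size factors, no filter, all 15 libraries, a replicate block and each library left out. Named genes were the highest, the most specific, the nearest to each limit, the called, the listed and the neighbouring members; the other members were named in addition after their values were seen. Members and lists were chosen with earlier results of these data known, and role groups, some lists and some motifs were added after the values were seen. For 1 member, its own values are not reported here; it counts in the totals over all members.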

Additional observations from a re-analysis of the deposited data

How the results depend on the processing

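The number of genes meeting the limits was 49, and it was 24 with a ratio of at least 8, 94 with a Met1 mean of at least 1 CPM, 24 with a mean of at least 20 CPM and 45 to 76 when 1 library was left out, the highest without the third Met1 library. It was 46 with TMM scaling, where Adm2, Capn13 and Nfia fell below a ratio of 4. Fits with all 15 libraries or without a filter tested all 49 genes, 9 of them beyond the 40 of the fit reported. With all 15 libraries these 9 passed through their Met1 counts. For the fit without a filter, counts over all genes are not given here. For metastasis against primary, members called higher were 1, 2 without a filter (Mdfic added) and 1 when any 1 library was left out. Members called lower were 3, 5 with all 15 libraries, 6 with DESeq2, 5 without a filter (Igfbp7 among both sets of 5) and 1 to 10 when 1 library was left out (10 without the first Met2 library). For Met2 against Primary2, members called higher were 0, 1 with all 15 libraries or DESeq2, 2 without a filter and 0 to 1 when 1 library was left out, and members called lower were 0, 1 with all 15 libraries or DESeq2 and 0 to 2 when 1 library was left out (2 without the first Met2 library). For Met3 against Primary3, members called higher were 0, and 0 to 1 when 1 library was left out, and members called lower were 6, and 0 to 8 when 1 library was left out. Over all genes, this comparison had 2596 calls in either direction, and 993 to 3609 when 1 library was left out. For Met3 against Met2, members called lower were 0, 5 with DESeq2, 1 without a filter and 0 to 1 when 1 library was left out. Over all 14465 genes DESeq2 called 2546 lower for metastasis against primary and 1302 for Met2 against Primary2. It called 2002 lower for Met3 against Primary3 and 342 for Met3 against Met2. For the difference between rounds, DESeq2 called 2 lower, an alternative added after the values were seen. The members' median log2 change for Met2 against Primary2 changed sign without the first Met2 library (−0.41) or the third Primary2 library (−0.01), with −0.41 to 0.62 over the libraries left out. For Primary3 against Primary2 it changed sign without the second Primary2 library (0.22), with −0.48 to 0.22. No called gene changed direction. The cause of these changes was not tested.

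With the replicate number as a block, the members called lower were 6 for metastasis against primary, with Papss2 and Cldn18 kept and Mical1 lost (adjusted p = 0.0710), and 3 for Met3 against Primary3, with Papss2 and Tnik kept and the other 4 lost, while Car9 was still the 1 called higher. Over all 14465 genes, the block gave 1986 calls higher and 2035 lower for metastasis against primary, against 2051 and 2126 without it. For Met3 against Primary3 it gave 1250 calls lower, against 1449. Same-numbered libraries of different groups did not clearly deviate together over all groups. Correlations of deviations from group means were −0.13 to 0.33 over 18 pairs, against −0.39 to 0.30 over 36 pairs of different numbers. The same-numbered pairs of Primary2 and Primary3 had 0.33, 0.21 and 0.087, and the different-numbered pairs of these groups −0.39 to 0.30. These values do not show that the numbers pair the samples, and they cannot exclude it. In counts this low, 1 count in a library equals 0.0469 to 0.0708 CPM, which limits the precision of the 9 genes left out by the filter.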
